A study of Mus musculus with 45 samples.

Results

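Bisphenol AF (BPAF) carries fluorine on the bridge between the phenol rings where bisphenol A, used in plastics, carries hydrogen, and this comparison asked which of its effects on the cultured mouse limb were late and which were already complete within hours. It rests on 20 of the 45 libraries of the series, 5 in each of 4 groups chosen by their labels: forelimb buds kept for 3 or 48 h with the solvent DMSO as control or with 5 µM BPAF. By their labels, all groups share CD1 embryos of gestation day 13, the same medium, and pooled limbs of male and female embryos. A library is thus a mixture of limbs rather than 1 animal. The treatment text of the labels writes the compound out once as bisphenol A, whereas titles and doses name BPAF, which is the name used here. The measure is an interaction: the log2 effect of 5 µM over control at 48 h minus the same effect at 3 h, tested per gene in 1 fit of all 4 groups. The 10 libraries at 24 h, 5 control and 5 with 5 µM, did not enter that fit and show where the effects stood in between.

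At this stage a forelimb bud is in the middle of building its tissues. Muscle precursors that migrated in from the somites, with Pax7 and Myf5 active in the progenitors and Myod1 and Myog in cells that turn into fibres, begin to make sarcomeres, while cartilage grows and its oldest cells enlarge before bone replaces them. Cells under chemical stress use several programmes with different clocks. Unfolded protein in the endoplasmic reticulum raises chaperones such as Hspa5 through Xbp1 and Atf6, ATF4 raises amino acid and stress genes such as Trib3, p53 raises cell cycle and death genes such as Ccng1 and Bbc3, and tubulin genes are held down by free tubulin, which destabilises their own messages.

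The libraries held 15198800 to 25154030 reads (median 17711089), and 17558 genes passed the low-count filter. Levels are CPM, the share of a library's reads on a linear scale with TMM scaling, and gene positions are those of the deposited tables on mm10. The forelimb factor Tbx5 lay between 203 and 299 CPM and the limb mesenchyme factor Prrx1 between 349 and 587 CPM over these libraries, against 17.7 to 29.4 CPM for the hindlimb factor Tbx4, and the forelimb label was not contradicted. Time separated the libraries on the first principal component, which held 48.7% of the variance. Control 3 h replicate 3 and control 48 h replicate 3 held limbs of 1 sex by their sex-linked transcripts, and both 48 h libraries numbered 3 stood apart on the third component. The counts below were recomputed without them. Since the labels do not say how the replicates of a group were separated, p-values measure the spread between libraries, part of which may be technical.

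Most of the effect of 5 µM BPAF that differed between the times was late, and most of it was a level below control at 48 h. The interaction was called for 491 genes, 2.8% of those tested, with the 48 h effect above the 3 h effect for 133 (0.757%) and below it for 358 (2.04%) (edgeR quasi-likelihood test, Benjamini-Hochberg adjusted p under 0.05). Of these, 460 were late: the 48 h effect was called, the 3 h effect was not, and the 48 h effect was the larger. There were 347 late falls and 113 late rises, and 141 of the falls but 9 of the rises reached 2-fold at 48 h. A late fall or rise here is a level below or above control at 48 h, not a change over time. For 390 of the 460, the 95% interval of the 3 h effect lay inside 1.5-fold in either direction. Without both 48 h libraries numbered 3 the interaction count was 432 with 404 late genes, and without the libraries of 1 sex it was 422 with 398 late genes.

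The times on their own differed far more in number. At 3 h 23 genes were called (0.131%), 12 higher (0.0683%) and 11 lower (0.0626%), none by 2-fold, and 1128 genes had an unadjusted p under 0.05. At 48 h 1610 genes were called (9.17%), 749 higher (4.27%) and 861 lower (4.9%). The late genes made up 28.6% of the 48 h calls. The other 48 h calls cannot be read as early: the interaction was not called for 1145 of the 1610, but its 95% interval lay inside 1.5-fold for only 733 of all 1610. Over those 1610 genes the 3 h estimate had the same sign as the 48 h estimate in 60.7%, against 55.3% of all genes tested.

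**Figure D1:**
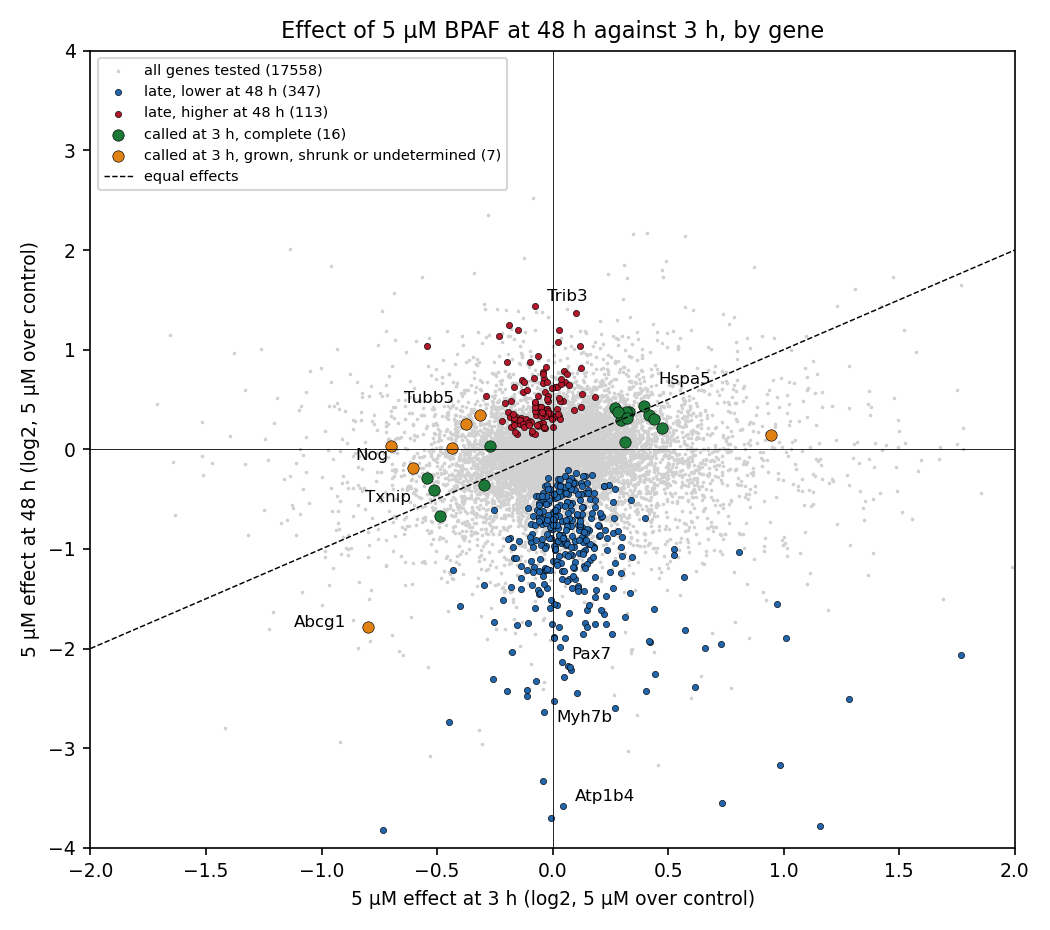
Effect of 5 µM BPAF at 48 h (vertical axis, log2 of 5 µM over control) against the effect at 3 h (horizontal axis, same unit) for the 17558 genes tested, 1 point each, with 16 genes outside the axes. The 347 late falls and 113 late rises lie along the vertical axis, away from the dashed line of equal effects, and most of the 16 genes complete at 3 h lie near that line. These positions follow in part from the rules that define the classes.

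Contractile genes of skeletal muscle were called as late falls almost throughout the list. Of the 48 contractile muscle genes tested, 43 were called in the interaction, all 43 as late falls, where 2.04% of all genes were called lower. Their median effect went from 0.05 at 3 h to -0.52 at 24 h and -0.99 at 48 h on the log2 scale, while the median over all genes tested stayed at 0.00, 0.00 and 0.01. Across the alternatives run the count lay between 41 and 44, with 42 without both 48 h libraries numbered 3 and 41 without the libraries of 1 sex. Myom2, the M-band protein myomesin 2 (ENSMUSG00000031461, chromosome 8 from 15057653 to 15133541) shows the pattern. Its control libraries held 18.0, 17.4, 21.5, 19.4 and 17.5 CPM at 3 h, and the 5 µM libraries 18.6, 17.5, 23.9, 24.8 and 19.6 CPM. At 48 h the control libraries had reached 67.8, 81.1, 94.6, 57.3 and 78.1 CPM, and the 5 µM libraries held 20.3, 23.8, 25.1, 21.6 and 19.8 CPM. The 3 h groups overlapped, every 5 µM library at 48 h lay below every control library, and 4 of the 5 µM libraries at 48 h were within the range of the 5 µM libraries at 3 h. The interaction was -1.94 ± 0.16 (SE, n = 5 per group, edgeR adjusted p = 2.63e-08), and control limbs changed by 2.02 ± 0.12 from 3 to 48 h where 5 µM limbs changed by 0.08 ± 0.12.

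The fall ran through the parts of the sarcomere and the calcium machinery. Among the thick filament genes, the myosins Myh7b at -2.60 ± 0.20, Myh7 at -1.89 ± 0.18 and Myh3 at -1.53 were called in the interaction, and so were Myom1, the other myomesin, at -1.83 ± 0.14 and Xirp1, an actin-binding protein of growing myofibrils, at -2.34 ± 0.29. Called as well were the actins Acta1 (-0.94) and Actc1 (-0.93), the giant proteins Ttn (-1.18) and Neb (-1.17), the fast troponin Tnnt3 (-1.31), the calcium store protein Casq1 (-1.59) and the calcium release channel Ryr1 (-0.98). The members that were not called were Ckm, muscle creatine kinase, at -3.03, Jsrp1 at -0.64, Actn3 at -0.41, Nebl at 0.17 and myoglobin Mb at 0.13. Myh7b, a slow-type myosin (ENSMUSG00000074652, chromosome 2 from 155611212 to 155634307), fell by 2.64 ± 0.15 on the log2 scale at 48 h. Its control libraries held 40.2, 49.5, 38.2, 31.3 and 30.7 CPM at 48 h against 6.17, 7.36, 7.32, 6.40 and 3.58 CPM with 5 µM. Unlike Myom2 it was already at 29.1 ± 3.15 CPM in control and 28.4 ± 2.79 CPM with 5 µM at 3 h (SD, 5 libraries per group), so its level with 5 µM at 48 h lay below that of every 3 h library.

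Progenitor genes fell late as well, but not the determination factor Myod1. Of 20 genes of muscle progenitors and determination, 8 were called as late falls and 1, Eya2 at 0.47, as a late rise. Over all genes, 2.04% were called lower in the interaction and 0.757% higher. Pax7 (chromosome 4 from 139737062 to 139833528), which marks the progenitors, held 15.5, 17.9, 18.4, 14.3 and 15.2 CPM in control libraries at 3 h and 17.2, 16.2, 17.4, 15.3 and 17.1 CPM with 5 µM. At 48 h it held 14.0, 14.2, 16.9, 14.1 and 14.6 CPM in control libraries and 3.23, 3.80, 4.58, 3.97 and 3.20 CPM with 5 µM. The groups overlapped at 3 h and were far apart at 48 h, and the control level was about the same at both times, with a change of -0.13 ± 0.10 (SE). The interaction for Pax7 was -2.02 ± 0.15 (edgeR adjusted p = 5.08e-09). Msc, a bHLH repressor of myoblasts, had an interaction of -2.18 ± 0.27, the determination factor Myf5 -1.48 ± 0.21, the migratory precursor factor Lbx1 -1.21, and Heyl, a Notch target of muscle progenitors, -1.07 ± 0.19. Cdh15, the cadherin of myoblasts, stood at -0.80 and the fusion gene Mymk at -0.77, both called.

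Myod1 had an interaction of -0.23 ± 0.13 with a 95% interval from -0.49 to 0.04 (edgeR adjusted p = 0.506), and Myog, the factor of differentiating myoblasts, stood at -0.46 without a call. Among 9 genes of the neuromuscular junction 4 were called lower, against 2.04% of all genes. They were the acetylcholinesterase anchor Colq at -2.11 ± 0.43, the receptor kinase Musk at -1.35 ± 0.31, the receptor clustering protein Rapsn at -0.93 ± 0.19 and the receptor subunit Chrnb1 at -0.89 ± 0.12. The subunit Chrna1 stood at -0.31 without a call. With the replicate number as a block within each time the junction count was 7, and under the other alternatives it was at most 6. In these whole-limb libraries, fewer muscle cells and less muscle RNA per cell cannot be told apart.

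Among the 15 largest falls named by size, several were further muscle genes. Atp1b4, a muscle membrane protein, had the largest, at -3.63 ± 0.35, with 2.15 to 4.10 CPM in control and 1.86 to 4.84 CPM in 5 µM libraries at 3 h, and 11.3 to 22.4 CPM against 0.801 to 1.81 CPM at 48 h. Its 48 h groups did not overlap. Fgf6, a growth factor of muscle, stood at -2.38 ± 0.37, Csrp3, the muscle LIM protein, at -2.26 ± 0.31, and Tceal7 at -2.31 ± 0.20. All of these were called at 48 h and none at 3 h.

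**Figure D2:**
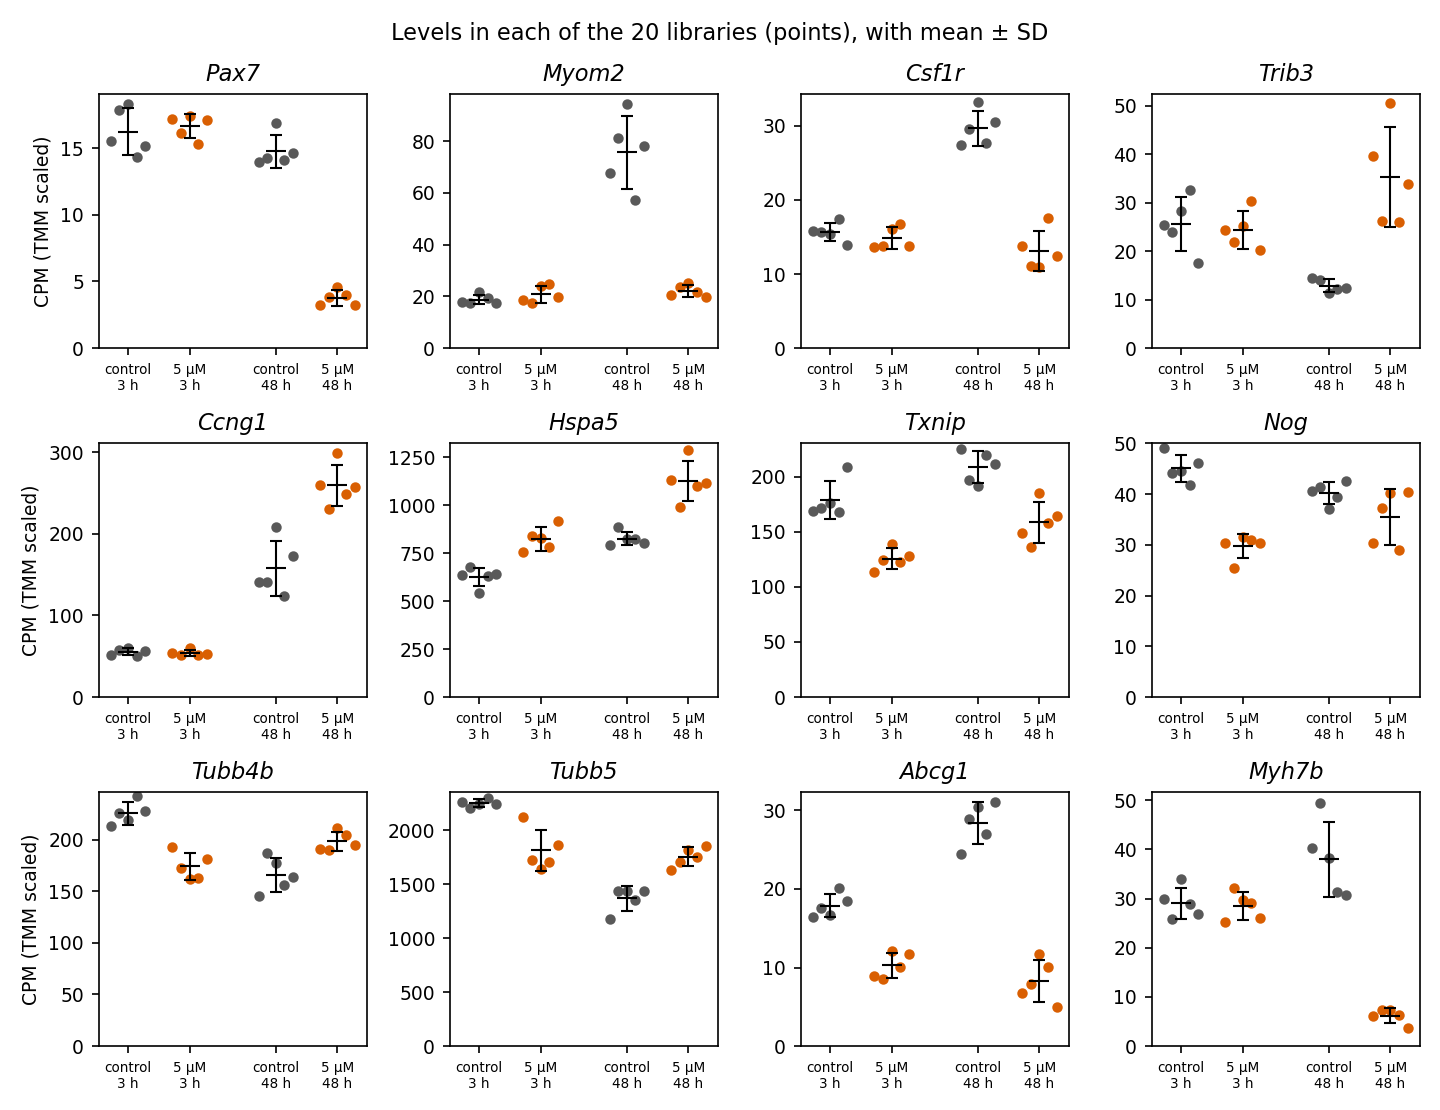
Levels of 12 genes in each of the 20 libraries (points, TMM-scaled CPM on a linear axis from 0), with the mean and SD of the 5 libraries per group. Pax7, Myom2, Csf1r and Myh7b separate at 48 h only, Hspa5, Txnip and Abcg1 at both times, Nog at 3 h only, and Tubb4b and Tubb5 in opposite directions at the 2 times.

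Some markers of macrophages and of the vessel wall were also called as late falls, while most members of those lists were not called in the interaction. Of 20 macrophage genes, all of which passed the filter, 5 were called lower in the interaction, against 2.04% of all genes, and none higher. An unadjusted p under 0.05 was reached by 15, all lower. At 48 h 10 of the 20 were called lower, against 4.9% of all genes. Csf1r, the receptor for the growth factor that macrophages need (ENSMUSG00000024621), held 15.8, 15.7, 15.5, 17.4 and 14.0 CPM in control libraries at 3 h and 13.7, 13.8, 16.1, 16.8 and 13.7 CPM with 5 µM. At 48 h it held 27.4, 29.6, 33.2, 27.6 and 30.5 CPM in control libraries and 13.8, 11.0, 11.0, 17.5 and 12.4 CPM with 5 µM. The 3 h groups overlapped and the 48 h groups did not, with 3 of the 5 µM libraries at 48 h below every 3 h library. The interaction was -1.10 ± 0.15 for Csf1r, -1.16 ± 0.21 for the lysozyme gene Lyz2 and -0.59 for the leukocyte membrane gene Laptm5. The macrophage list as a whole summed to 124 to 149 CPM in control and 114 to 139.6 CPM in 5 µM libraries at 3 h, and to 400.7 to 537 CPM against 286 to 352 CPM at 48 h.

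The macrophage count was small and moved with single libraries. It was 3 with the Y-linked covariate, by limma-voom, with all 45 libraries in the fit, without both 48 h libraries numbered 3, and when 1 library was left out (control 3 h replicate 1, 3 or 5, 5 µM 3 h replicate 2, 3 or 4, control 48 h replicate 2 or 5, or 5 µM 48 h replicate 1, 2 or 5). Without the libraries of 1 sex the macrophage count was 2. Csf1r and Lyz2 kept their calls in all 30 alternatives. Cx3cr1, a further called member, lost its call under 14 of them. Its 5 µM libraries at 3 h, at 6.89 to 10.28 CPM, already lay below every control library (10.91 to 13.25 CPM).

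Genes of the vessel wall were divided. Of 12 smooth muscle and pericyte genes 4 were called as late falls: Rgs5, a pericyte regulator of G-protein signalling, at -1.76 ± 0.24, the potassium channel subunit Abcc9 at -1.29 ± 0.18, smooth muscle actin Acta2, which immature skeletal muscle can also make, at -0.98 ± 0.14 and desmin, Des, which skeletal muscle also makes, at -0.58 ± 0.14. The count was 4 in every alternative run, and 2.04% of all genes were called lower in the interaction. Acta2 held 161, 234, 261, 186 and 246 CPM in control and 103, 123, 123, 113 and 109 CPM in 5 µM libraries at 48 h, without overlap, whereas at 3 h the groups overlapped (118 to 149 CPM and 121 to 151 CPM). The contractile genes Tagln at 0.19 and Myh11 at -0.18 and the pericyte receptor Pdgfrb at 0.02 were not called. In the endothelial list 2 of 20 were called lower, against the same 2.04% of all genes. They were the membrane protein Ecscr at -0.89 ± 0.16 and the apelin receptor Aplnr at -0.72 ± 0.17. That endothelial count was 4 by DESeq2, without 5 µM 48 h replicate 3 and without both 48 h libraries numbered 3, 5 with either replicate block and 1 without the libraries of 1 sex.

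The erythroid list gave no call and the Schwann lineage list 3. The summed erythroid markers, from red blood cells, were lower at 48 h in both arms, going from 1965 to 3092 CPM at 3 h to 543 to 869 CPM at 48 h in control and from 1804 to 2520 CPM to 416 to 647 CPM with 5 µM, and 0 of 11 tested were called in the interaction by edgeR, with 0 at an unadjusted p under 0.05 and 0 by DESeq2 or limma-voom. In the Schwann lineage, 3 of 12 were called lower, against 2.04% of all genes, among them the neuregulin receptor Erbb3 at -0.54 ± 0.12, and its summed markers went from 192 to 220 CPM in control and 210.1 to 232 CPM in 5 µM libraries at 3 h to 193 to 222 CPM and 164 to 197 CPM at 48 h. The contractile muscle list, for comparison, summed to 2510 to 3245 CPM in control and 2861 to 3219 CPM in 5 µM libraries at 3 h, and to 8199 to 12820 CPM and 4488 to 5465 CPM at 48 h. The part of cell composition in the late falls was not tested.

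Among the late rises were members of the p53, ATF4 and NRF2 lists, which held 10, 5 and 4 of the 113. Of 25 targets of p53, 10 were called in the interaction, all as late rises, where 0.757% of all genes were called higher. The count lay between 7 and 12 over the alternatives run and was 9 without both 48 h libraries numbered 3 and 9 without the libraries of 1 sex. The list median was -0.02 at 3 h, 0.23 at 24 h and 0.41 at 48 h. Ccng1, a cyclin that p53 raises (ENSMUSG00000020326, chromosome 11 from 40748552 to 40755311), held 51.2, 58.2, 60.6, 50.3 and 56.7 CPM in control libraries at 3 h and 54.4, 51.5, 59.5, 52.0 and 52.8 CPM with 5 µM. By 48 h Ccng1 held 141, 142, 209, 123 and 173 CPM in control libraries and 259.7, 230.4, 299, 249 and 258 CPM with 5 µM. Control libraries were all higher at 48 h than at 3 h, and the lowest 5 µM library at 48 h lay above the highest control library, control 48 h replicate 3. The interaction was 0.75 ± 0.14 (edgeR adjusted p = 0.00193).

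The p53 targets called included genes of cell death. The death genes Bbc3, Pmaip1 and Bax had interactions of 0.82 ± 0.19, 0.80 and 0.43, and the death receptor Tnfrsf10b one of 0.61 ± 0.12. Phlda3, an inhibitor of Akt, stood at 0.70, Trp53inp1 at 0.70, Zmat3 at 0.52, Mdm2, which degrades p53, at 0.38 and the kinase Plk2 at 0.37 ± 0.07. Cdkn1a, the cell cycle inhibitor p21, stood at 0.38 and was not called. Eda2r, a death receptor, was called at 48 h (0.67) but already stood at 0.38 at 3 h without a call, and its interaction of 0.29 was not called.

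Genes of the ATF4 response split between late and unresolved. Of 31, 6 were called higher in the interaction, 5 of them late, against 0.757% of all genes called higher. Trib3, a pseudokinase that restrains ATF4 signalling (chromosome 2 from 152337422 to 152344032), held 25.4, 24.0, 28.4, 32.7 and 17.5 CPM in control and 24.3, 21.9, 25.1, 30.4 and 20.2 CPM in 5 µM libraries at 3 h. At 48 h it held 14.4, 14.1, 11.4, 12.2 and 12.4 CPM in control and 39.6, 26.1, 50.6, 26.1 and 33.9 CPM in 5 µM libraries. The 48 h groups did not overlap, and control limbs differed by -0.98 ± 0.16 (SE) between 48 and 3 h. With an interaction of 1.51 ± 0.23 (edgeR adjusted p = 1.03e-04), Trib3 had a larger estimate than any other called member of the list. Sesn2, a brake on growth signalling, stood at 0.80 ± 0.14, the transcription factor Atf5 at 0.62 ± 0.13 and the phosphatase regulator Ppp1r15a at 0.46.

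Many members of the ATF4 list were called at 48 h without a called interaction. At 48 h 21 of the 31 were higher, against 4.27% of all genes. Asns, asparagine synthetase, was among them at 0.37, and its interaction of 0.38 was not called. The ATF4 interaction count was 10 without 5 µM 48 h replicate 2, 11 with the replicate block within time and 3 without both 48 h libraries numbered 3, and without those libraries 12 were higher at 48 h. Of 16 genes of the NRF2 response to oxidants 4 were called higher in the interaction, against 0.757% of all genes. Among them were malic enzyme Me1 at 0.54 ± 0.10 and the glutathione transferase Gsta4 at 0.50 ± 0.12. The NRF2 count was 2 without 5 µM 48 h replicate 3 and with all 45 libraries in the fit. The call of Gsta4 was lost without 5 µM 3 h replicate 3 (edgeR adjusted p = 0.0501).

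The 24 h libraries, which took no part in defining the late genes, gave most of them the same sign at a smaller size. Of 16433 genes tested at 24 h, 258 passed (1.57%), 78 higher (0.475%) and 180 lower (1.1%). Of 339 late falls measured there, 121 were called lower (35.7%) and none higher, and 334 lay below 0. Of 113 late rises, 19 were called higher (16.8%) and none lower, and 106 lay above 0. The median of the late falls was 0.06 at 3 h, -0.43 at 24 h and -0.91 at 48 h, and that of the late rises -0.05, 0.21 and 0.40. The 3 and 48 h medians follow in part from the rule that chose these genes, and the 24 h medians do not. Of the late genes, 28.3% had the same sign at 3 h as at 48 h, against 55.3% of all genes tested. That share also follows in part from the rule, since the interaction subtracts the 3 h effect. Single genes differed in pace: Acta2 stood at -0.83 at 24 h and -0.94 at 48 h, whereas Myh7b stood at -0.66 (edgeR adjusted p = 0.114, not called) and -2.64. The number of 24 h calls depended on single libraries, as given with the processing.

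**Figure D3:**
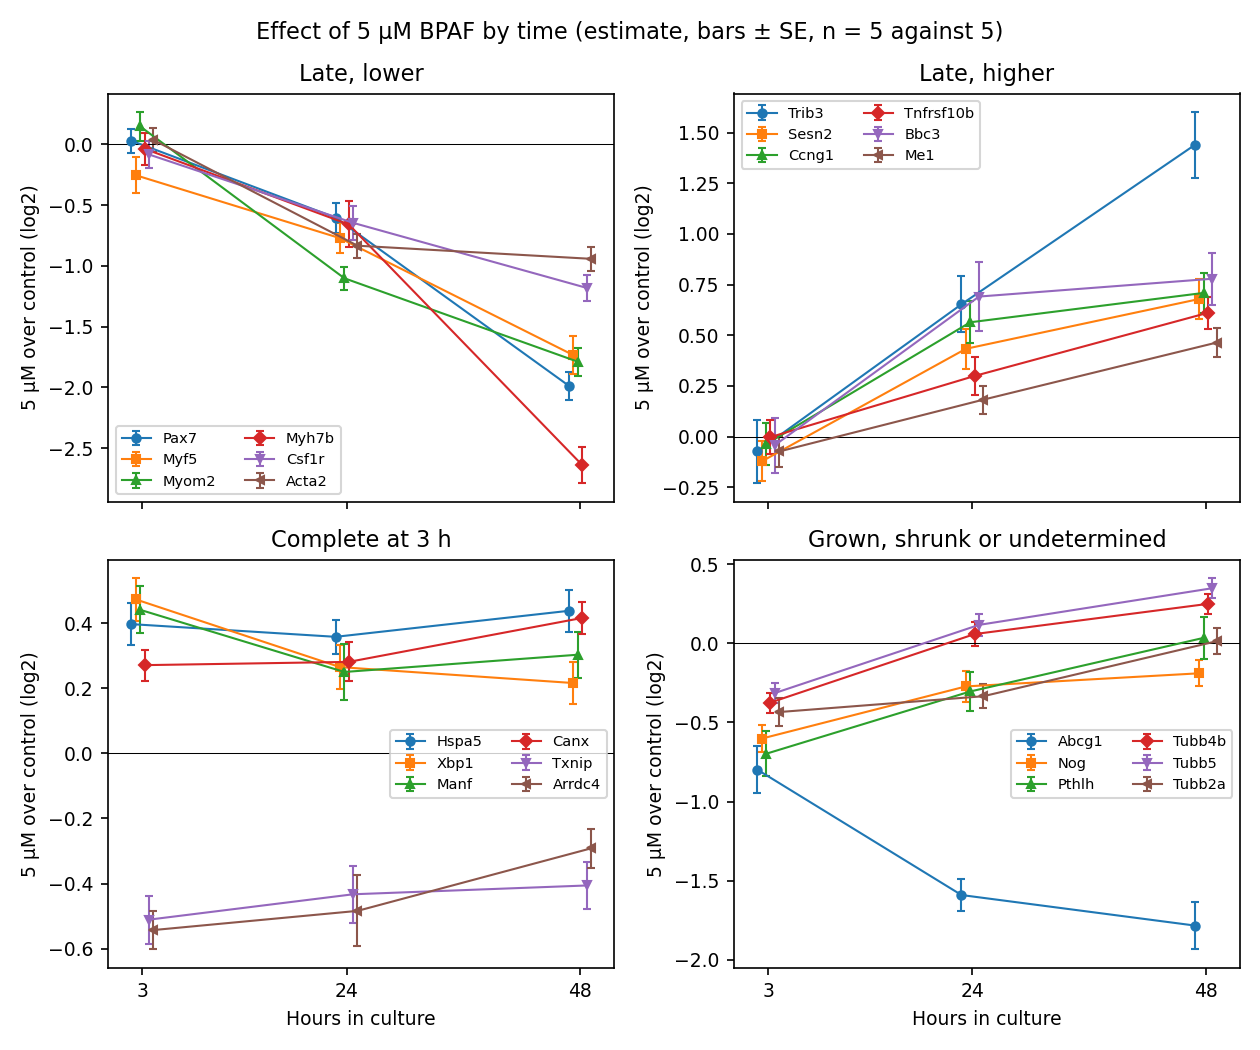
Effect of 5 µM BPAF (log2 of 5 µM over control, estimate ± SE, n = 5 against 5) at 3, 24 and 48 h for 6 genes of each kind, with points spread slightly sideways. The late genes start near 0 at 3 h, Hspa5 and Txnip keep their 3 h size, Abcg1 deepens from -0.80 to -1.78, and Tubb5 crosses from -0.31 to 0.35. The 3 and 48 h values follow in part from the rules that define the classes.

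Most late falls were of genes that rose over time in control limbs. Between 3 and 48 h 292 of the 347 late falls were called higher in control limbs and 20 lower, where 25.2% of all genes were called higher and 25.7% lower. Over all genes, 5 µM limbs gave 25% with a rise and 25.7% with a fall across that span. Of the 292, 132 also rose in 5 µM limbs, 115 were not called and 45 fell. The median change over time of the 347 was 1.13 in control and 0.06 in 5 µM limbs. Pax7 and Msc belong to the minority not called higher in controls. Late rises had no such direction in controls, with 50 of the 113 called higher and 37 lower over time. These changes share libraries with the interaction and describe the same data from another side.

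Genes complete at 3 h were few, and 6 of the 16 were on the list of reticulum chaperones and regulators. Of the 23 genes called at 3 h, 16 had a 95% interval of the interaction inside 1.5-fold, and 14 of these were also called at 48 h in the same direction. All 16 had 3 h effects smaller than 1.5-fold, so the rule could also pass an effect that was gone by 48 h. It bounds the change between the times and does not show that the effects were equal. The members were chosen by their 3 h test, so their 3 h values are a description. The 24 h libraries, not used in the choice, had 10 of the 23 called in the same direction there, none in the other, and 21 of the same sign. The 6 called at 3 h among 23 chaperones and regulators of the unfolded protein response were Hspa5, Xbp1, Manf, Dnajc3, Canx and Hyou1, all higher and all complete. At 24 h 7 of the 23 were called higher and at 48 h 19, and none lower at any time. Of all genes tested, 0.0683% were called higher at 3 h, 0.475% at 24 h and 4.27% at 48 h. In the interaction 0 of the 23 were called by edgeR, DESeq2 or limma-voom, with 5 at an unadjusted p under 0.05. The list median was 0.27 at 3 h, 0.26 at 24 h and 0.31 at 48 h.

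Hspa5, Dnajc3 and Canx carry the ER stress element, the sequence through which Xbp1 and Atf6 act, close upstream of their start. The element is CCAAT and CCACG with 9 bases between, searched on both strands of the 250 bases before each start site in the RefSeq promoter table of build GRCm38.p6. It was found in 3 of the 4 genes of the 6 that have an entry, in 10 of 21 members of the whole list with one, and in 0.113% of 32851 entries over all genes. Of the other members with the element, Hsp90b1, Calr, Pdia6, Creld2, Syvn1 and Derl3 were not called at 3 h, and Ero1b did not pass the low-count filter. A link between the element and the 3 h calls was not tested. The capitals mark CCAAT and CCACG, and the sequences are shown because these genes moved together at 3 h and stayed.
Hspa5, chr2:34772005-34772063, plus strand, 46 bases from the element to the start site: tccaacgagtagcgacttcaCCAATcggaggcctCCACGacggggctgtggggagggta
Dnajc3, chr14:118937807-118937865, plus strand, 86 bases from the element to the start site: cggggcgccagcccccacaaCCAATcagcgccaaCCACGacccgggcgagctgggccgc
Canx, chr11:50325780-50325838, minus strand, 126 bases from the element to the start site: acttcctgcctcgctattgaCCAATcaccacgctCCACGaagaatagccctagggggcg
Xbp1 had no match in its window, which says only that these letters are not in it, and a match is not evidence of binding. The start sites are those of RefSeq.

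Hspa5, the main chaperone of the reticulum (chromosome 2 from 34771970 to 34777547), held 638, 676, 544, 631 and 640.3 CPM in control libraries at 3 h and 755, 839.7, 828, 783 and 919 CPM with 5 µM. The 48 h libraries held 794, 884, 824, 824 and 803 CPM in control libraries and 1130, 992, 1289, 1099 and 1117 CPM with 5 µM. Every 5 µM library lay above every control library at both times, and every control library at 48 h lay above every one at 3 h. The effects of 0.40 ± 0.06 at 3 h and 0.44 ± 0.06 at 48 h left an interaction of 0.04 ± 0.09, with a 95% interval from -0.15 to 0.23. Canx, calnexin, which holds folding glycoproteins, stood at 0.27 ± 0.05 and 0.42 ± 0.05 with an interval of the interaction from 0.01 to 0.28. Hyou1, another reticulum chaperone, stood at 0.30 at both times.

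Xbp1 and Manf leaned the other way, with smaller estimates at 48 h. Xbp1, the spliced transcription factor of the response (ENSMUSG00000020484, chromosome 11 from 5520659 to 5525893), held 90.0, 94.2, 75.2, 86.7 and 85.6 CPM in control and 108, 123, 120.1, 114 and 134 CPM in 5 µM libraries at 3 h, and 151, 159, 137, 151 and 160.1 CPM against 193, 164, 187, 167 and 174 CPM at 48 h. The groups were apart at both times, with effects of 0.47 ± 0.06 and 0.22 ± 0.06. The interaction for Xbp1 was -0.26 ± 0.09 with an interval from -0.45 to -0.07 and was not called over all genes (edgeR adjusted p = 0.166). Manf, a secreted reticulum factor, stood at 0.44 ± 0.07 and 0.30 ± 0.07 with an interval from -0.34 to 0.07.

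Txnip, Arrdc4 and Arrdc3 of the arrestin-domain list were also complete at 3 h, and the other 5 members of the 8 had no 3 h call. Txnip, which binds thioredoxin and limits glucose uptake (chromosome 3 from 96557957 to 96561883), held 169, 172, 176, 168 and 209 CPM in control libraries at 3 h and 114, 124, 139, 122 and 128 CPM with 5 µM. By 48 h Txnip held 225, 197, 191, 219 and 211 CPM in control libraries and 149, 136, 185, 158 and 164 CPM with 5 µM. No library of one group reached the other at either time. Txnip stood at -0.51 ± 0.07 and -0.41 ± 0.07 with an interval of the interaction from -0.11 to 0.32, and its relative Arrdc4 at -0.54 ± 0.06 and -0.29 ± 0.06 with an interval from 0.08 to 0.42. Another arrestin-domain gene, Arrdc3, was higher at both times, by 0.33 ± 0.06 and 0.37 ± 0.06. Of the 8 genes of the arrestin-domain list, 0 were called in the interaction by edgeR, DESeq2 or limma-voom, with 2 at an unadjusted p under 0.05.

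The other complete genes were Serp1, a stabiliser of reticulum membrane proteins (0.32 at 3 h and 0.37 at 48 h), the thioredoxin-domain gene Txndc11 (0.32 at both), the clock output factor Tef (0.28 and 0.37), the peptidase Apeh (-0.30 and -0.36) and the cholesterol exporter Abca1 (-0.49 and -0.67). Hspa8, the constitutive cytosolic chaperone (0.31 and 0.07), and the Notch and Wnt corepressor Tle1 (-0.27 and 0.04) were within the margin but not called at 48 h. For Tle1 the interaction of 0.31 ± 0.08 was itself called (edgeR adjusted p = 0.0253), so the margin of 1.5-fold, not equality, is what places it here.

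The 3 h calls were the least stable of the counts. Nog, Arrdc4, Xbp1, Txnip, Hspa5, Manf and Tubb4b were called at 3 h under all 30 alternatives, and the other 16 lost the call under at least 1. Dnajc3 and Serp1 lost it with the Y-linked covariate alone, and Canx and Tef also without control 3 h replicate 5. Hyou1 was called under 12 of the 30, Abca1 under 6 and Fhl4 under 3, and Abca1 was lost without any 1 of the 10 libraries at 3 h. The number of genes called at 3 h was 14, 15, 14 and 9 without control 3 h replicates 1, 3, 4 and 5, and 11, 14, 15 and 14 without 5 µM 3 h replicates 2, 3, 4 and 5. Of those complete at 3 h there were 10 and 7 without control 3 h replicates 1 and 5, and 9, 10 and 10 without 5 µM 3 h replicates 2, 3 and 5. For the reticulum list the 3 h count was 3 with the Y-linked covariate, 10 with all 45 libraries in the fit and 12 by DESeq2.

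Tubulin genes went against the rest, since the 3 that fell at 3 h were back at control level or above it at 48 h by their estimates. Of 12 tested, 7 were called in the interaction, all higher, where 0.757% of all genes were called higher. At 3 h 0.0626% of all genes were called lower. The median effect of the 12 was -0.34 at 3 h, -0.03 at 24 h and 0.17 at 48 h. Tubb5, a main beta tubulin of dividing cells (ENSMUSG00000001525, chromosome 17 from 35833921 to 35838306), held 2261, 2207, 2240, 2303 and 2239 CPM in control libraries at 3 h and 2126, 1727, 1644, 1704 and 1862 CPM with 5 µM. At 48 h it held 1177, 1441, 1440, 1353 and 1434 CPM in control libraries and 1636, 1709, 1818, 1752 and 1856 CPM with 5 µM. Every 5 µM library was below the controls at 3 h and above them at 48 h. The effects were -0.31 ± 0.06 and 0.35 ± 0.06, both called, and the interaction was 0.66 ± 0.09 (edgeR adjusted p = 3.05e-05).

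Tubb4b, a further beta tubulin (ENSMUSG00000036752, chromosome 2 from 25222160 to 25224702), did the same. It held 213, 226, 219, 242 and 227 CPM in control and 192, 173, 161, 163 and 182 CPM in 5 µM libraries at 3 h, and 145, 187, 177, 156 and 164 CPM against 191, 190.3, 211, 204 and 195 CPM at 48 h. Again the groups did not overlap at either time and changed places. The interaction for Tubb4b was 0.62 ± 0.09 (edgeR adjusted p = 6.9e-05), and these 2 tubulins were the only genes called at both times in opposite directions. At 24 h Tubb5 stood at 0.12 and Tubb4b at 0.06, neither called.

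The remaining tubulins divided into returning, late and falling members. Tubb2a fell by 0.43 ± 0.09 on the log2 scale at 3 h and stood at 0.01 ± 0.08 at 48 h, and Tuba1a at -0.41 ± 0.09 (edgeR adjusted p = 0.0714) and 0.18 ± 0.09. The neuronal Tubb3 was the late member, at -0.23 ± 0.18 and 1.14 ± 0.21, with an interaction of 1.36 ± 0.28. Tuba4a at -0.92, Tubb6 at -0.41 and Tubb2b at -0.32 were called lower at 48 h, with interactions of -0.46, -0.07 and 0.01 that were not called. The number of tubulins called in the interaction lay between 5 and 8 over the alternatives, while the number lower at 3 h, 3 here, was 1 without control 3 h replicate 1, 2, 3, 4 or 5 or 5 µM 3 h replicate 2, 4 or 5 and 6 without 5 µM 3 h replicate 1. It was 7 with the replicate block within time. These genes are near-identical in sequence, and how reads that match several of them were counted is not given in the sources used here, so their split is uncertain. Under 12 of the 30 alternatives Tubb5 lost its 3 h call, and under 17 Tubb2a lost its interaction call.

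Noggin and Pthlh, both regulators of cartilage, were lower at 3 h and nearer to control at 48 h. Nog, the secreted inhibitor of BMPs (chromosome 11 from 89300638 to 89302332), held 49.0, 44.2, 44.5, 41.7 and 46.1 CPM in control and 30.4, 25.5, 31.6, 30.9 and 30.4 CPM in 5 µM libraries at 3 h. By 48 h Nog held 40.5, 41.5, 37.1, 39.3 and 42.6 CPM in control and 30.4, 37.3, 40.3, 29.0 and 40.4 CPM in 5 µM libraries. The 3 h groups were clearly apart, and the 48 h groups overlapped because 3 of the 5 µM libraries lay within the control range. The effect on Nog went from -0.60 ± 0.08 to -0.19 ± 0.08, and the interaction of 0.41 ± 0.12 narrowly missed the threshold (edgeR adjusted p = 0.0548), which leaves Nog neither complete nor returned. It was called under 5 of the 30 alternatives. Pthlh, the ligand that delays cartilage enlargement, went from -0.70 ± 0.14 to 0.03 ± 0.13 with a called interaction of 0.73 ± 0.20 (edgeR adjusted p = 0.0374), a call lost under 17 of the 30 alternatives with adjusted p up to 0.0876. Fhl4, a low LIM-domain gene, was the other undetermined one, at 0.95 ± 0.20 and 0.14 ± 0.21, with a 3 h call that held under 3 of the 30 alternatives. The 3 h call of Pthlh was lost under 16 of them.

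Abcg1 was the single gene that was called at 3 h and grew. Abcg1, a cholesterol exporter raised by the liver X receptor (LXR) (chromosome 17 from 31057698 to 31115777), held 16.4, 17.6, 16.7, 20.1 and 18.4 CPM in control and 8.98, 8.52, 12.1, 10.1 and 11.7 CPM in 5 µM libraries at 3 h. The 48 h libraries held 24.4, 28.9, 30.4, 27.1 and 31.1 CPM in control and 6.80, 7.96, 11.8, 10.1 and 5.02 CPM in 5 µM libraries. The groups did not overlap at either time, and the control libraries were all higher at 48 h than at 3 h. The effect went from -0.80 ± 0.15 to -1.59 at 24 h and -1.78 ± 0.15 at 48 h, with an interaction of -0.99 ± 0.21 (edgeR adjusted p = 0.00577). The 3 h call of Abcg1 was lost without 5 µM 3 h replicate 2 or 4 or control 3 h replicate 4 or 5, with adjusted p up to 0.102 over the alternatives, while its interaction call held in all 30.

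Other LXR targets did not share that course. Abca1, called at 3 h, had an interaction of -0.18 ± 0.14 with an interval from -0.47 to 0.12. Apoe, the lipoprotein gene, was late, at -0.03 ± 0.09 and -0.97 ± 0.08. Srebf1, the regulator of fatty acid synthesis, stood at -0.26 ± 0.06 at 3 h without a call and at -0.61 ± 0.06 at 48 h, with an interaction of -0.36 ± 0.09 (edgeR adjusted p = 0.0187), lost without 5 µM 3 h replicate 4 and with the Y-linked covariate. Of 14 LXR targets 4 were called in the interaction, all lower, against 2.04% of all genes. The LXR count was 2 without 5 µM 3 h replicate 4 and with the Y-linked covariate. Cholesterol synthesis genes had a median of 0.22 at 3 h and 0.06 at 48 h, and 0 of 24 were called in the interaction by edgeR or limma-voom, 1 by DESeq2 and 3 at an unadjusted p under 0.05.

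Few cartilage and bone genes were called in the interaction, where 2.8% of all genes were, and some were low at 3 h. In the chondrocyte list 1 of 28 was called in the interaction, among hypertrophic genes 1 higher and 1 lower of 18, and among osteoblast genes 0 of 18 by edgeR or limma-voom, with 1 by DESeq2 and 3 at an unadjusted p under 0.05. The collagen Col2a1 had an interaction of 0.35 ± 0.11 (edgeR adjusted p = 0.0791), called under 6 of the 30 alternatives, and the cartilage regulator Sox9 one of 0.22 ± 0.09 with effects of -0.22 ± 0.06 at 3 h and -0.01 ± 0.06 at 48 h. Acan, the cartilage proteoglycan (0.22 ± 0.14), Runx2 (0.02 ± 0.13) and Sp7 (-0.11 ± 0.14), factors of bone-forming cells, and Col1a1, the bone and tendon collagen (-0.13 ± 0.16), were not called.

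For the genes of enlarging cartilage and mineral the 3 h level limited the comparison. Col10a1, the collagen of enlarged cartilage cells, was at 5.10 ± 1.18 CPM in control and 5.13 ± 1.21 CPM with 5 µM at 3 h (SD, 5 libraries per group), and at 219.9 ± 77.3 and 98.9 ± 63.0 CPM at 48 h. Its 48 h effect of -1.16 ± 0.28 was called, but the interaction of the same size had a 95% interval from -2.23 to -0.09 (edgeR adjusted p = 0.337). Ibsp, bone sialoprotein, was below 1 CPM on average in both groups at 3 h, and its interaction of -0.49 had an interval from -2.29 to 1.31. A late fall was thus not detectable at this depth, although the 48 h effect of -1.33 was called. At 24 h Ibsp held 94.7 to 155 CPM in control and 14.0 to 52.2 CPM in 5 µM libraries, and Col10a1 16.8 to 30.2 against 5.74 to 11.5 CPM, without overlap. In the 24 h test 3 of 18 hypertrophic and 3 of 17 osteoblast genes were called lower and 1 of each list higher. Over all genes 1.1% were called lower and 0.475% higher there. Mef2c, a factor of enlarging cartilage and of muscle, was late, at 0.01 ± 0.07 and -0.68 ± 0.07, and Kera, a tendon and cornea proteoglycan, at 0.01 ± 0.09 and -0.98 ± 0.09.

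Limb patterning and cell division lists had few calls, and the FGF and retinoic acid lists had 3 calls each. Of 37 patterning factors 2 were called higher in the interaction, with a median of 0.06, and of 28 G1/S genes 1 was called, cyclin E1 (Ccne1) at -0.45. The patterning count lay between 0 and 4 over the alternatives and was 0 with the Y-linked covariate. Ccne1 lost its call under 14 of the 30 alternatives. Over all genes 0.757% were called higher and 2.04% lower. Of 26 G2/M genes 0 were called by edgeR, DESeq2 or limma-voom, with 1 at an unadjusted p under 0.05. Of 15 genes of FGF feedback, 1 was called higher and 2 lower. The late falls were Etv5 at -0.59 ± 0.09, a target of the pathway, and the feedback inhibitor Spry1 at -0.59 ± 0.12, whereas Spry4 (-0.53) and Dusp6 (-0.13) were not called. In the retinoic acid list 2 of 11 were called higher and 1 lower, where the binding protein Crabp1 at 0.43 ± 0.09 was a late rise, and the synthetic enzyme Aldh1a3 at -1.11 ± 0.24 a late fall. The joint ligand Gdf5 had a called interaction of 0.47 ± 0.11 without a call at either time, at -0.27 ± 0.07 and 0.21 ± 0.08.

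**Figure D4:**
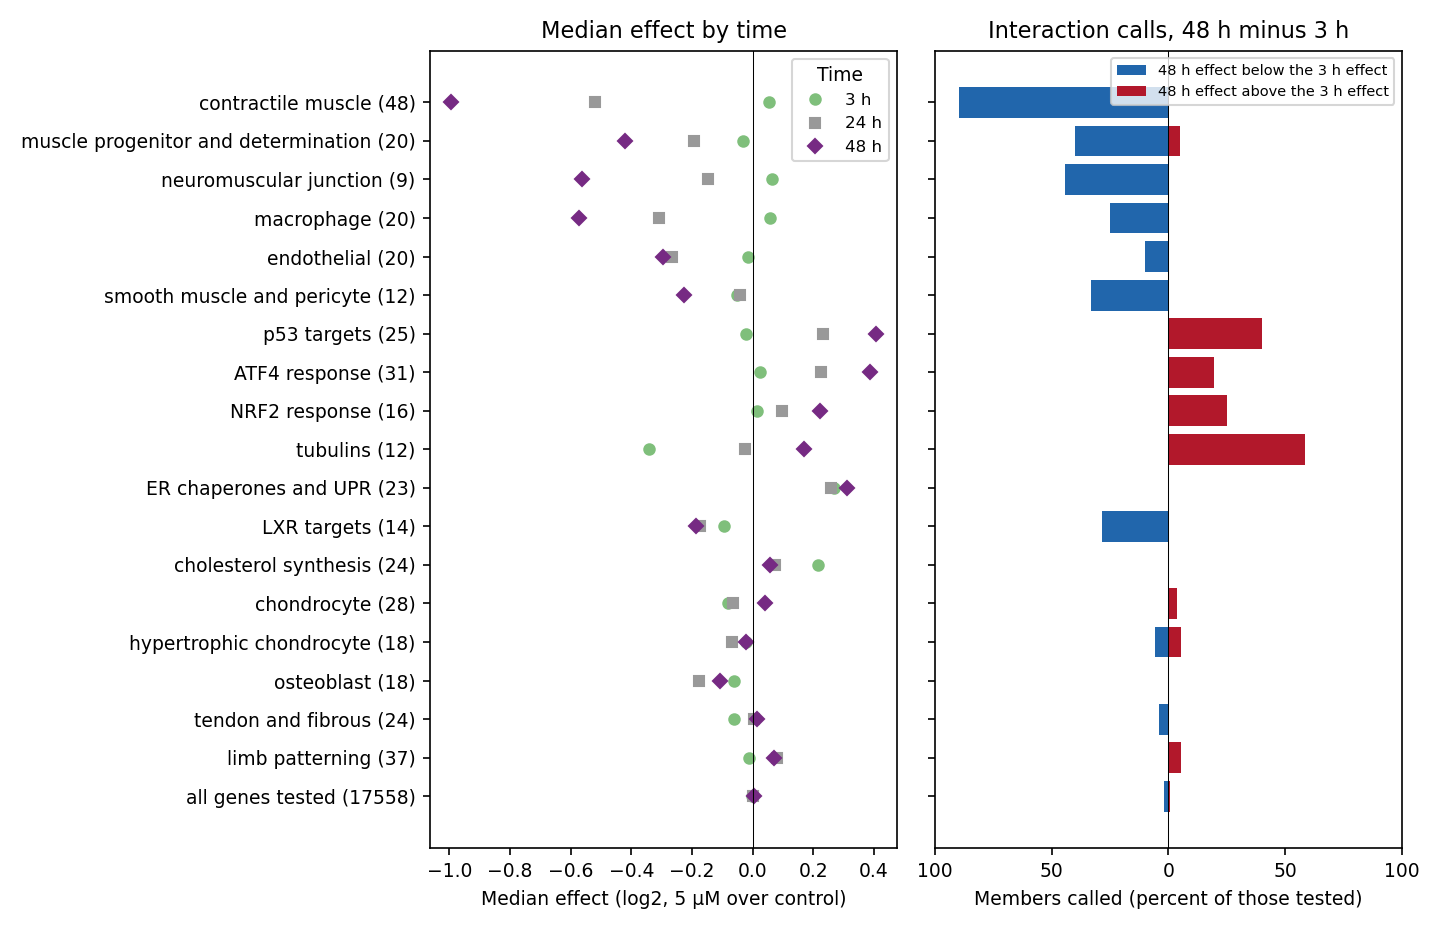
Left, the median effect of 5 µM BPAF (log2 of 5 µM over control) over the tested members of 18 gene lists and over all genes, at 3, 24 and 48 h, with the number tested in brackets. Right, the percent of those members called in the interaction, blue where the 48 h effect was below the 3 h effect and red where it was above; contractile muscle (43 of 48) and tubulins (7 of 12) reach furthest, and the chaperone list has 0 of 23.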

How the data were processed

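The deposited tables hold, per the file headers, untransformed counts of reads per gene for 10 libraries each. Those that set a dose against its control were joined over 45 libraries, and CPM levels come from that join. The submitters' processing notes name CASAVA 1.8, STAR 2.5, HTSeq 0.6.1, DESeq2 and build mm10, without settings. Absent genes were read as 0 counts (13.3% of gene and library combinations over 35212 joined genes, 35177 with a symbol).

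Counts were fitted in edgeR 4.0.16 (R 4.3.3) with TMM scaling, filterByExpr (minimum count 10, minimum total 15), the quasi-likelihood F-test, no covariate and 1 coefficient per group over 20 libraries, adjusted over all genes tested at 0.05. The 24 h effect came from a fit of its own 10 libraries. SE is the estimate over the root of F, except where F was small and the estimate near 0. There it came from the Fisher information, scaled to the F-based SE. A gene was late, or complete at 3 h (95% interval of the interaction inside 1.5-fold), by the rules given in the text. Alternatives were RLE scaling, DESeq2 1.42.0, limma-voom 3.58.1, no filter, replicate blocks, a covariate of Y-linked expression, all 45 libraries, left-out libraries and a threshold of 0.01. The procedure was tested on simulated data.

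Named genes were taken from all genes called at 3 h, the 15 largest rises and falls at a mean of at least 2 CPM, up to 4 called members per list and 16 anchors. Other list members given with a value were picked to show a list's spread after their values were seen. The gene lists and the genes followed were chosen with earlier results of these data known. Near-identical, overlapping and antisense genes may share reads.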

Additional observations from a re-analysis of the deposited data

Results flagged for a closer look

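The effect of 5 µM BPAF differed between 48 and 3 h, by the test of the interaction itself, for 491 genes. Of the 15 genes examined in each library, those called were Pax7 at -2.02, Myf5 at -1.48, Myom2 at -1.94, Myh7b at -2.60, Csf1r at -1.10, Acta2 at -0.98 and Abcg1 at -0.99, with the 48 h effect the lower one, and Trib3 at 1.51, Ccng1 at 0.75, Tubb4b at 0.62 and Tubb5 at 0.66, with the 48 h effect the higher one, all on the log2 scale. Single libraries stood far from the other 4 of their group in 3 of the 60 groups of 5 tested over 15 genes, where chance gives about 1 in 20. Pax7 was at 16.9 CPM in control 48 h replicate 3 against 14.0 to 14.6 CPM in the others. Txnip was at 209 CPM in control 3 h replicate 5 against 168 to 176 CPM. Nog was at 25.5 CPM in 5 µM 3 h replicate 2 against 30.4 to 31.6 CPM.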

How the results depend on the processing

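Among the 121 named genes, no interaction called in the main fit or in an alternative changed sign between them. Uncalled interactions near 0 could change sign, such as Hspa5 (-0.011 to 0.101) and Runx2 (-0.087 to 0.072). Of the 121 genes, 88 kept their side of the threshold under all 30. The interaction count of 491 lay between 404 and 651 over all alternatives and between 404 and 499 when 1 library was left out, and the 48 h count of 1610 between 1162 and 2011. The count of late genes, 460, was 262 at an interaction threshold of 0.01 and 386 to 469 with 1 library left out. The 3 h count of 23 was 67 by DESeq2, 44 with the replicate block within time, 10 with the Y-linked covariate, 38 with all 45 libraries and 15 without the libraries of 1 sex, an alternative added after seeing the data, and 9 to 29 with 1 library left out. The higher and lower 3 h calls were 35 and 32 by DESeq2. The complete count of 16 was 29 with that block, 7 with the covariate, 25 with all 45 libraries and 7 to 20 with 1 library left out. The count of genes called at 24 h, 258, was 514 by DESeq2, 655 with the replicate block and 463 with the covariate. Without the libraries of 1 sex, control 24 h replicates 2 and 3, it was 64. It was 128, 132, 131 and 148 without control 24 h replicates 1, 2, 3 and 4, and 109, 133, 161 and 500 without 5 µM 24 h replicates 1, 2, 3 and 5. The cause of these shifts was not tested. Replicate numbers were not treated as pairs, because the labels do not say what a shared number means. The correlation of same-numbered libraries was over 0.1 for only some numbers (-0.003 to 0.219 at 3 h and 0.015 to 0.175 at 48 h). At each time 4 of 5 numbers had their own partner as the best match, so equal numbers may share a source that the main fit leaves out. With the block over all 4 groups the interaction count was 501, and with the block within time 641. The median SE of the interaction was 0.149, and a difference has to be several times its SE to pass the threshold over all genes.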
